A study of Mus musculus with 3 samples.

Results

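The 10 genes described here encode integrin subunits, Itgam, Itgal, Itgax, Itga4, Itga5, Itga6 and Itgav of the alpha kind and Itgb2, Itgb1 and Itgb5 of the beta kind. They were matched by gene symbol to the annotation and are 10 of 55536 annotated genes, and all 10 had counts in every library. An integrin is a receptor of 1 alpha and 1 beta chain that spans the membrane and links ligands outside the cell, such as matrix proteins, cell surface ligands or complement fragments, to the actin skeleton inside it. The beta chain binds talin and kindlin, which switch the receptor to its active shape. In leukocytes the chains that share Itgb2 serve adhesion, migration and phagocytosis, and the chains that share Itgb1 mainly bind fibronectin, laminin and VCAM1.

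The RNA came from the cytosolic fraction of macrophages grown from the bone marrow of C57BL/6J mice, whose sex and age the labels do not give. The cells had received Lipid A, the part of endotoxin that TLR4 recognises, at 100 ng/ml for 12 h, then had 12 h of washout, and were harvested 25 min after a second dose of 100 ng/ml. The series is 1 group of 3 libraries (replicates 1, 2 and 3) of total RNA depleted of ribosomal RNA, with 55517261, 21311556 and 45635014 expected counts, so replicate 2 was the shallowest. Untreated cells and nuclear RNA were not analysed here, so levels, ratios within a library and the spread between libraries are described, and no effect of Lipid A. The labels number the libraries as biological replicates, and they come from separate biosamples with 1 donor entry. The spread between them may therefore be biological or technical, and the 2 cannot be told apart. In RNA of whole cultures, fewer cells of a type and less RNA per cell cannot be told apart.

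The markers of the labelled cell type were present. Of 10 macrophage markers 9 reached 1 TPM (transcripts per 1000000, a level per length of transcript) in all 3 libraries, led by Lyz2 at 3737 ± 895 TPM and Cd68 at 814 ± 140 TPM (SD, n = 3), and the exception was Cx3cr1. Of 8 neutrophil markers 2 passed, S100a9 at 6.82 ± 2.99 TPM and S100a8 at 3.89 ± 0.475 TPM, and Ly6g had no counts. Of 8 platelet and megakaryocyte markers 2 passed, Pf4 at 92.4 ± 15.3 TPM and Vwf at 3.98 ± 0.508 TPM, and Gp1bb had no counts. The lists of 8 dendritic cell, 8 lymphocyte and 8 stromal and endothelial markers had 1 such gene each, Ccr7 at 1.37 ± 0.320 TPM, Cd79b at 2.30 ± 1.38 TPM and Kdr at 5.88 ± 3.16 TPM. The nuclear RNA Malat1 had 1156, 976 and 246 TPM in replicates 1, 2 and 3.

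Several of the subunits were present as more than 1 annotated transcript, and the coding stretches in which those transcripts part are printed first because the isoform results below turn on them. All are read 5′ to 3′ on the plus strand of mouse build mm10, from the transcript sequences of GENCODE release M21. For Itgam and Itgal the capitals mark 3 bases that 1 transcript has and the other lacks, at chr7:128101634-128101636 in Itgam and chr7:127317364-127317366 in Itgal. For Itga6 the capitals mark where the last coding exons differ, in Itga6-201 the coding part of the exon at chr2:71853534-71853663 and in Itga6-202 the first 30 bases of the exon used in its place. For Itgb2 the capitals mark the first 30 bases after the shared exon, in Itgb2-201 those of the exon at chr10:77559479-77559723 and in Itgb2-204 those of the next exon, since Itgb2-204 skips that exon.
Itgam-201: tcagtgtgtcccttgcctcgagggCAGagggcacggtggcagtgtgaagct
Itgam-203: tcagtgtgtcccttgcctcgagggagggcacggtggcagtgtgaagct
Itgal-201: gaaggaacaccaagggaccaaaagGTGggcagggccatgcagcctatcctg
Itgal-202: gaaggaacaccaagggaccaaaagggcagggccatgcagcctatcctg
Itga6-201: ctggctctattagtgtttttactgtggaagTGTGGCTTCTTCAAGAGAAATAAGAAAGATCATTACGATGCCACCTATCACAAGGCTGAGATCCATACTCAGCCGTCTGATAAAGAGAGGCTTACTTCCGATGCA
Itga6-202: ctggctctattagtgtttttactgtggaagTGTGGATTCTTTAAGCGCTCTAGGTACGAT
Itgb2-201: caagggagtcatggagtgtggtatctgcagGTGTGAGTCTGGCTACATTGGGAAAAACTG
Itgb2-204: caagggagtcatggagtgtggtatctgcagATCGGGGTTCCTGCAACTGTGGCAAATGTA

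Of the 10 subunits 9 had at least 1 TPM in every library, where 42.1% of 22015 protein-coding genes of the nuclear genome did, and the exception was Itgax. The same 9 subunits also had at least 5 TPM in every library, but the share of all genes at that limit was not taken. The median of the mean levels was 29.6 TPM over the 10 subunits, beside 0.197 TPM over all these protein-coding genes. The chain with the highest mean was Itgb2, the beta chain shared by the leukocyte integrins, followed by Itgb1, the beta chain with the most alpha partners.

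Among the leukocyte integrin chains, Itgb2 (CD18, chromosome 10) had 106, 183 and 105 TPM in replicates 1, 2 and 3, a mean of 131 ± 44.5 TPM (SD, n = 3) that ranked 396 of the 22015 genes. Itgam (CD11b), which pairs with Itgb2 to form complement receptor 3, had 33.1, 69.5 and 47.7 TPM (50.1 ± 18.3). Itgal (CD11a), the alpha chain of LFA-1 that binds ICAM family ligands, had 22.3, 45.0 and 23.5 TPM (30.3 ± 12.7). All 3 genes had their highest TPM in replicate 2. The share of all genes with their highest TPM there was not taken. Itgax (CD11c), the alpha chain of complement receptor 4 and a common marker of dendritic cells, had 0.25, 0.5 and 0.22 TPM, resting on 86, 51 and 56 expected counts. Itgam was above Itgax by 132-fold, 139-fold and 217-fold in replicates 1, 2 and 3, a mean log2 difference of 7.31 ± 0.39.

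The difference in level between Itgam and Itgax stood between near neighbours in the genome. Both lie on the plus strand of chromosome 7, Itgam at 128062640 to 128118491 and Itgax at 128129547 to 128150657, with 11055 bases between them. Itgad, which encodes a further alpha partner of Itgb2, starts 3718 bases beyond Itgax and had 4, 1 and 2 expected counts. Itgal lies on the same strand, 727501 bases before Itgam. Levels on this stretch therefore ran from Itgam downwards to Itgax and Itgad in each library.

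Among the chains of the other groups, Itgb1 (CD29) had 98.1, 123 and 84.0 TPM, a mean of 102 ± 19.6 TPM (SD, n = 3). Itga4, which pairs with Itgb1 or Itgb7 and binds VCAM1 and fibronectin, had 28.9, 39.7 and 26.4 TPM (31.6 ± 7.09). Itga5, the alpha chain of the classical fibronectin receptor, had 24.1, 29.7 and 25.0 TPM (26.3 ± 3.05). These 3 genes were again highest in replicate 2 on the TPM scale, though the range of Itga5 was narrow. Itga6, the alpha chain of laminin receptors with Itgb1 or Itgb4, had 19.1, 18.9 and 17.5 TPM (18.5 ± 0.904), and its libraries lay closest together of the 10 on this scale. Itgav, which pairs with several beta chains and binds RGD ligands such as vitronectin and latent TGF-beta, had 10.1, 16.2 and 10.3 TPM (12.2 ± 3.45). Itgb5, which pairs with Itgav to form a vitronectin receptor, had 21.4, 36.6 and 28.8 TPM (28.9 ± 7.64).

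**Figure D1:**
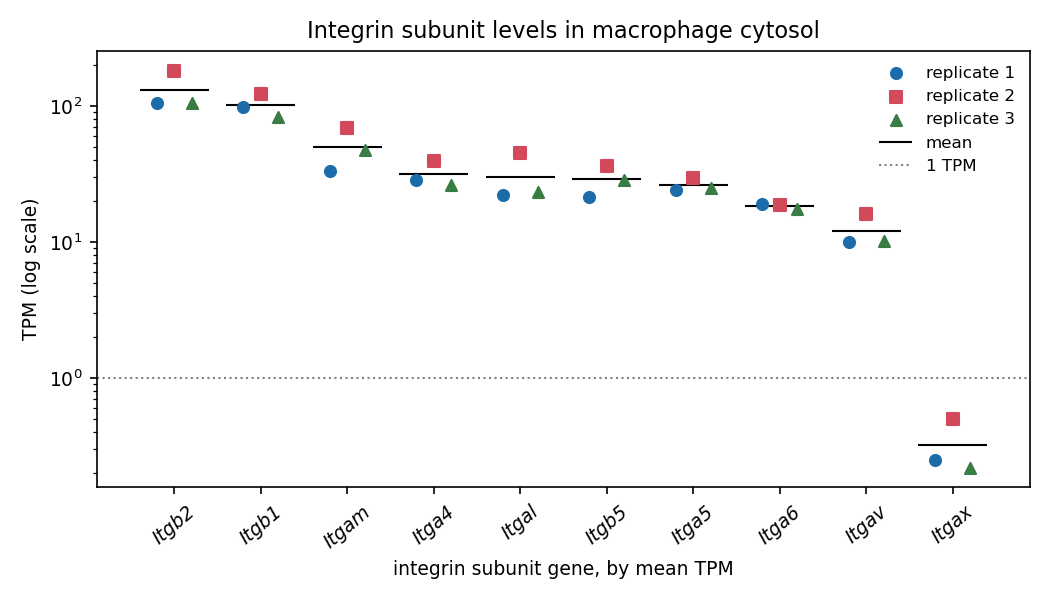
Levels of the 10 integrin subunit genes in TPM on a log scale, 1 point per library, with the mean of the 3 libraries as a bar and 1 TPM as a dotted line. Itgb2 and Itgb1 lie between 84.0 and 183 TPM, 7 genes lie between 10.1 and 69.5 TPM, and Itgax lies below 1 TPM in all 3 libraries.

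Ordered by mean TPM, the chains ran Itgb2, Itgb1, Itgam, Itga4, Itgal, Itgb5, Itga5, Itga6, Itgav and Itgax. Of the 9 neighbouring pairs 6 had the same direction in all 3 libraries. Itgb2 was above Itgb1 by 0.34 ± 0.23 on the log2 scale, Itgb1 above Itgam by 1.07 ± 0.43, and Itgam above Itga4 by 0.62 ± 0.37. Lower in the order, Itga5 was above Itga6 by 0.50 ± 0.16, Itga6 above Itgav by 0.64 ± 0.37, and Itgav above Itgax by 5.30 ± 0.27 (SD of log2 differences, n = 3). The chains in the middle were not separated: Itga4 over Itgal gave 0.12 ± 0.28, Itgal over Itgb5 0.02 ± 0.30 and Itgb5 over Itga5 0.11 ± 0.25, each smaller than its SD and higher in 2 of 3 libraries. An exact two-sided sign-flip test over 3 libraries cannot go below p = 0.25, which it gave for the 6 pairs of constant direction (adjusted p = 0.375 over the 9 pairs), and it gave adjusted p-values of 0.643 to 0.75 for the others. No pair could therefore pass a threshold of 0.05. With protein-coding transcripts alone, a setting added after the data had been seen, 4 pairs kept a constant direction, or 5 from the reads. Itgb2 over Itgb1 then gave 0.09, -0.02 and 0.29 in replicates 1, 2 and 3 (0.07, 0.20 and 0.28 from the reads), so it turned in replicate 2 by the alignment. Itga6 over Itgav gave a mean of -0.19 ± 0.34, or 0.10 ± 0.22 from the reads, and was no longer separated by either method.

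Alpha and beta chains of a group were set against each other within each library, since a beta chain has to be shared among its alpha partners. Itgb2 was above the sum of Itgam, Itgal and Itgax in all 3 libraries, with the sum at 55.7, 115 and 71.4 TPM and Itgb2 at 106, 183 and 105 TPM. The log2 ratio of the sum to Itgb2 was -0.93, -0.67 and -0.56, a mean of -0.72 ± 0.19 (SD, n = 3), so Itgb2 was on average 1.65-fold the sum. With protein-coding transcripts alone the ratio was -0.90, -0.08 and -0.53, so in replicate 2 the sum nearly reached Itgb2. Within that sum Itgam took 62.2 ± 4.02%, Itgal 37.4 ± 3.94% and Itgax 0.397 ± 0.0776%.

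With all transcripts counted, the mean ratio was nearer to 0 for Itgb1. The sum of Itga4, Itga5, Itga6 and Itgav was 82.2, 104 and 79.1 TPM, against 98.1, 123 and 84.0 TPM of Itgb1, and the log2 ratio was -0.26, -0.23 and -0.09, a mean of -0.19 ± 0.09 (SD, n = 3). With protein-coding transcripts alone this mean was -0.40 ± 0.15. Itga4 made up 35.5 ± 2.35% of this sum, Itga5 29.8 ± 1.61%, Itga6 21.1 ± 2.74% and Itgav 13.6 ± 1.67%. Itga4, Itga6 and Itgav also pair with other beta chains, so the sum is an upper limit for what pairs with Itgb1 among these 4 genes. Itgav stood at 0.473, 0.441 and 0.358 of the level of Itgb5, its partner in the vitronectin receptor. Message levels do not give the number of receptor chains on the cell surface.

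**Figure D2:**
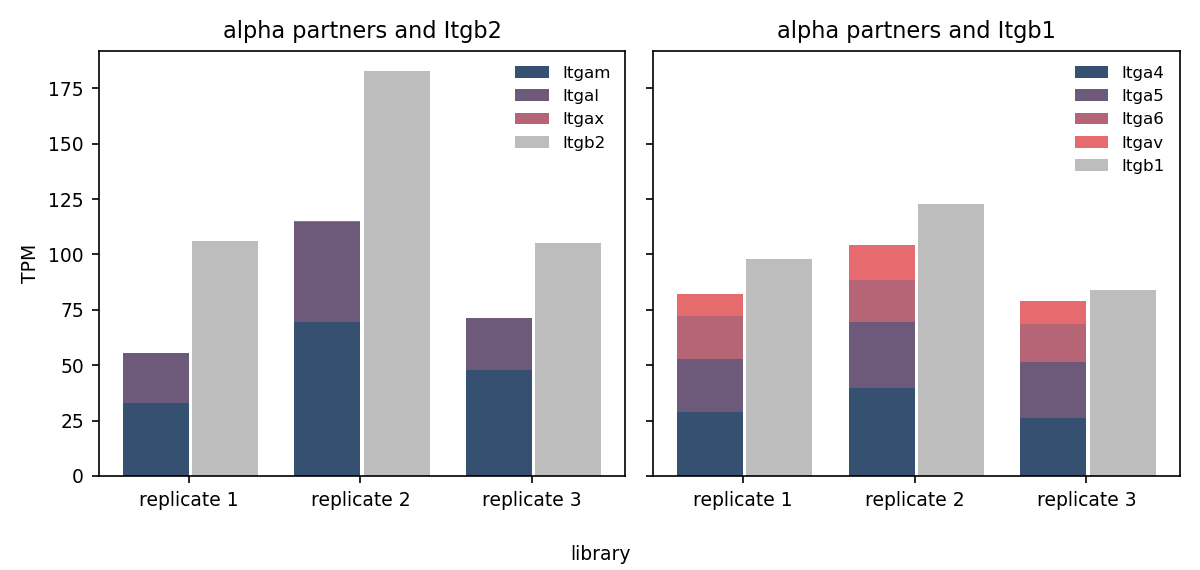
Summed TPM of alpha chains (stacked bars) beside the TPM of the beta chain they pair with (grey bars), per library, for Itgb2 on the left and Itgb1 on the right. The grey bar is the taller one in all 6 pairs, and Itgax is too low to be seen in its stack.

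To compare a gene between libraries, counts were scaled to 1000000 over the nuclear protein-coding genes (protein-coding CPM), because those genes took 29.6%, 40.4% and 34.8% of all TPM in replicates 1, 2 and 3. On this scale none of the 10 subunits had its highest library over 2-fold above its lowest, where 4.26% of 9604 protein-coding genes did. The ratio of highest to lowest, taken after adding 0.1 protein-coding CPM to each value, was largest for Itgax at 1.83, with 1.79, 2.61 and 1.38 protein-coding CPM, and smallest for Itga5 at 1.08, with 175, 169 and 163. In TPM as deposited, with 0.1 TPM added, Itgam reached 2.09 and Itgal 2.01, so 2 of 10 passed the same limit, where 7.92% of the 9604 genes did. Without the addition Itgax was at 1.89 in protein-coding CPM and at 2.27 in TPM, on few counts. The median biological coefficient of variation of the 10 subunits was 0.159 by edgeR, beside 0.175 over 12361 genes. By DESeq2's gene-wise estimate the order of these medians turned round, with 0.137 for the subunits beside 0.122.

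Itgb2 and its 3 alpha partners were all highest in replicate 2, as were Itga4 and Itgb5, making 6 of 10 subunits where 30.3% of the 9604 genes had their highest value there. By the alignment, Itgb2 was highest in replicate 2 only with transcripts counted that are not annotated as protein coding, called noncoding here. Its protein-coding transcripts alone had 523, 443 and 444 protein-coding CPM in replicates 1, 2 and 3 and were highest in replicate 1. From the reads those transcripts had 507, 529 and 439 and were highest in replicate 2. Itgb2 had 536, 644 and 456 protein-coding CPM in replicates 1, 2 and 3, Itgam 275, 421 and 338, and Itgal 192, 273 and 172. The 4 other subunits, Itgb1, Itga5, Itga6 and Itgav, were highest in replicate 1, where 47.5% of the genes were, and no subunit was highest in replicate 3, where 22.3% were. Itgb1 had 662, 600 and 484 protein-coding CPM, Itga6 118, 86.9 and 93.3, and Itgav 96.2, 86.2 and 74.8. Replicate 3 was lowest for 7 of the 10, where 47.0% of the genes were lowest. Itgam and Itgb5 were lowest in replicate 1, where 18.0% of the genes were, with 101, 127 and 118 protein-coding CPM for Itgb5, and Itga6 was lowest in replicate 2, where 34.9% were.

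With all transcripts counted, the 4 genes of the Itgb2 group stayed highest in replicate 2 under 5 other scalings of the counts or TPM, which were chosen after the data had been seen. With protein-coding transcripts alone, also tried afterwards, 3 of the 4 were, without Itgb2, and all 4 from the reads. Among the 6 other subunits the number highest in replicate 2 ran between 2 and 5 over the scalings, with 5 in TPM as deposited. The share of all genes highest in replicate 2 was taken only in protein-coding CPM, so the counts under the other scalings have no comparison. The ratio of Itgb2 to Itgb1, which no scaling of a library can move, was 1.08, 1.49 and 1.25 in replicates 1, 2 and 3 with all transcripts counted. The summed TPM of Itgb2, Itgam, Itgal and Itgax was 0.951, 1.41 and 1.16 of that of Itgb1, Itga4, Itga5 and Itga6, all transcripts counted. With protein-coding transcripts alone, the log2 ratio of Itgb2 to Itgb1 was 0.09, -0.02 and 0.29 in replicates 1, 2 and 3, lowest in replicate 2. From the reads it was 0.07, 0.20 and 0.28, highest in replicate 3. Marker lists of other blood cells went in different directions between libraries. The summed neutrophil markers had 6.49, 11.2 and 5.40 protein-coding CPM, with 2 of 8 genes at 1 TPM or more in every library and Ly6g at 0. The summed lymphocyte markers had 3.48, 5.82 and 2.91 (1 of 8 genes), and the summed macrophage markers 13683, 15228 and 13658 (9 of 10 genes). These 3 sums were highest in replicate 2, but not every marker in them was. Of the macrophage markers, Lyz2, Csf1r, Adgre1 and Mertk were highest in replicate 2. Cd68, Fcgr1, C1qa, Spi1 and Cx3cr1 were highest in replicate 3, and Cd14 in replicate 1. Of the neutrophil markers, S100a9, Ngp, Ltf and Mpo were highest in replicate 2, with 1.27, 4.75 and 0.937 protein-coding CPM for Ngp. S100a8 and Camp were highest in replicate 1 and Elane in replicate 3. Ltf, Mpo, Camp and Elane rested on at most 11 expected counts per library. Cd79b alone had 3.07, 5.31 and 2.42 of the lymphocyte sums. The summed platelet and megakaryocyte markers had 83.2, 73.1 and 76.6 protein-coding CPM (2 of 8 genes) and were lowest in replicate 2. The summed dendritic cell markers had 5.42, 5.72 and 6.26 (1 of 8 genes). The part of those cells in the Itgb2 group was not tested.

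**Figure D3:**
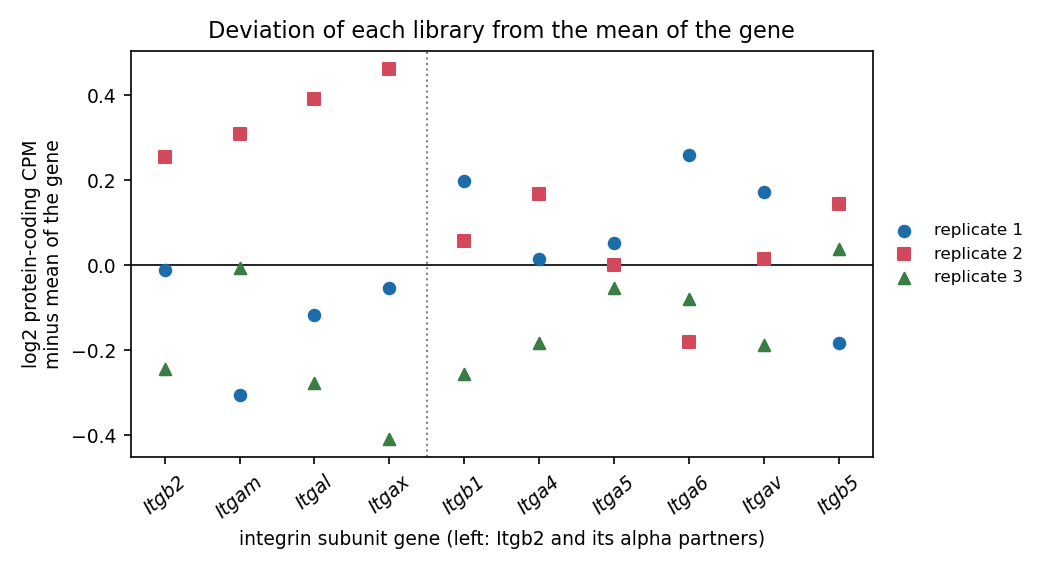
Log2 protein-coding CPM of each subunit in each library, minus the mean of the gene over the 3 libraries, with Itgb2 and its alpha partners left of the dotted line. The squares of replicate 2 are the highest points for all 4 genes on the left and for Itga4 and Itgb5 on the right. By the alignment this holds for Itgb2 only with transcripts counted that are not annotated as protein coding. From the reads its coding transcripts alone were highest in replicate 2.

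The authors deposited a second quantification, made from the reads without the alignment. For 9 of the 10 subunits the same transcript led in all 3 libraries and by both quantifications, and Itgal was the exception. The share of all genes with such a constant leading transcript was not taken, so this count has no comparison. Gene levels from the reads were lower throughout in TPM, for example 60.9 ± 34.6 TPM for Itgb2, and nuclear protein-coding genes took only 20.5%, 21.4% and 7.95% of that TPM. After both were rescaled over those genes, the subunits differed between quantifications by a median of -0.05 on the log2 scale (read-based minus alignment-based, from -0.30 for Itgav to 0.04 for Itga5). None of the 10 was over 1.5-fold apart, where 2.01% of the 9604 genes were.

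For Itgam the leading form was Itgam-203, the transcript without the capital CAG shown above, with 64.6%, 65.8% and 62.1% of the TPM of the gene in replicates 1, 2 and 3. Itgam-201, which has those 3 coding bases, took 34.1%, 33.7% and 36.9%. The read-based shares were close, 62.3%, 62.8% and 60.3% for Itgam-203 and 31.7%, 29.9% and 35.0% for Itgam-201. The 2 annotated transcripts also differ by 29 bases at the 5′ end. The ratio of the form with the 3 bases to the form without was 0.527, 0.512 and 0.594.

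Itgal has the same kind of difference, the 3 bases GTG, but its shares depended on the quantification. Itgal-201, which has them, took 42.8%, 53.5% and 48.1% from the alignment and 39.8%, 56.7% and 47.8% from the reads. Itgal-202, which lacks them, took 25.4%, 9.71% and 23.4% from the alignment and 49.0%, 25.9% and 47.8% from the reads. Itgal-203, a shorter form of 21 exons that starts 13227 bases downstream of the 31 exons of Itgal-201, took 28.5%, 34.9% and 26.7% from the alignment and 5.24%, 15.9% and 1.10% from the reads. The share of Itgal-201 thus differed less between the methods than those of Itgal-202 and Itgal-203.

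Itga6 was present in the form with the A-type cytoplasmic tail. Itga6-201, which ends with the 105 coding bases in capitals above, took 49.8%, 55.6% and 53.6% of the TPM of the gene. Itga6-202, with the B-type tail and named after its values were seen, took 1.5%, 1.14% and 0.950%, or 2.95%, 1.96% and 1.79% of the sum of both forms. Itga6-203, annotated as a processed transcript without a coding sequence, took 43.6%, 40.9% and 43.0%, and the read-based shares were 41.0%, 40.7% and 40.8%. Of its 2721 bases 1658 lie beyond the annotated end of Itga6-201. A share above 40% of the Itga6 level thus lay on a transcript annotated without a coding sequence, in all 3 libraries and by both methods.

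Itgb5 also had a pair of forms with steady shares. Itgb5-202, with 15 exons, took 52.6%, 55.1% and 54.0%, and Itgb5-207, with 11 exons and a start 62276 bases downstream, took 44.7%, 43.5% and 43.7% (36.3%, 39.5% and 36.4% from the reads). The short form shares 2021 of its 2130 bases with Itgb5-202. Itgav-201 took 70.0%, 54.6% and 63.2%, and the partial transcripts Itgav-205 and Itgav-206, of 463 and 688 bases that all lie within Itgav-201, took 13.7%, 26.5% and 16.7% and 7.69%, 18.1% and 18.7%. Those 2 partial forms rested on 30, 27 and 29 and on 33, 36 and 61 expected counts, against 4372, 1615 and 2893 for Itgav-201, so the TPM of Itgav held a part from few reads on short transcripts. From the reads Itgav-205 took 0.735%, 0% and 0%, whereas Itgav-206 took 9.74%, 23.0% and 24.7%, more than from the alignment. Of the remaining chains, Itgb1-201 took 99.1%, 99.5% and 99.3% of Itgb1, and Itgax-201 took all of Itgax.

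**Figure D4:**
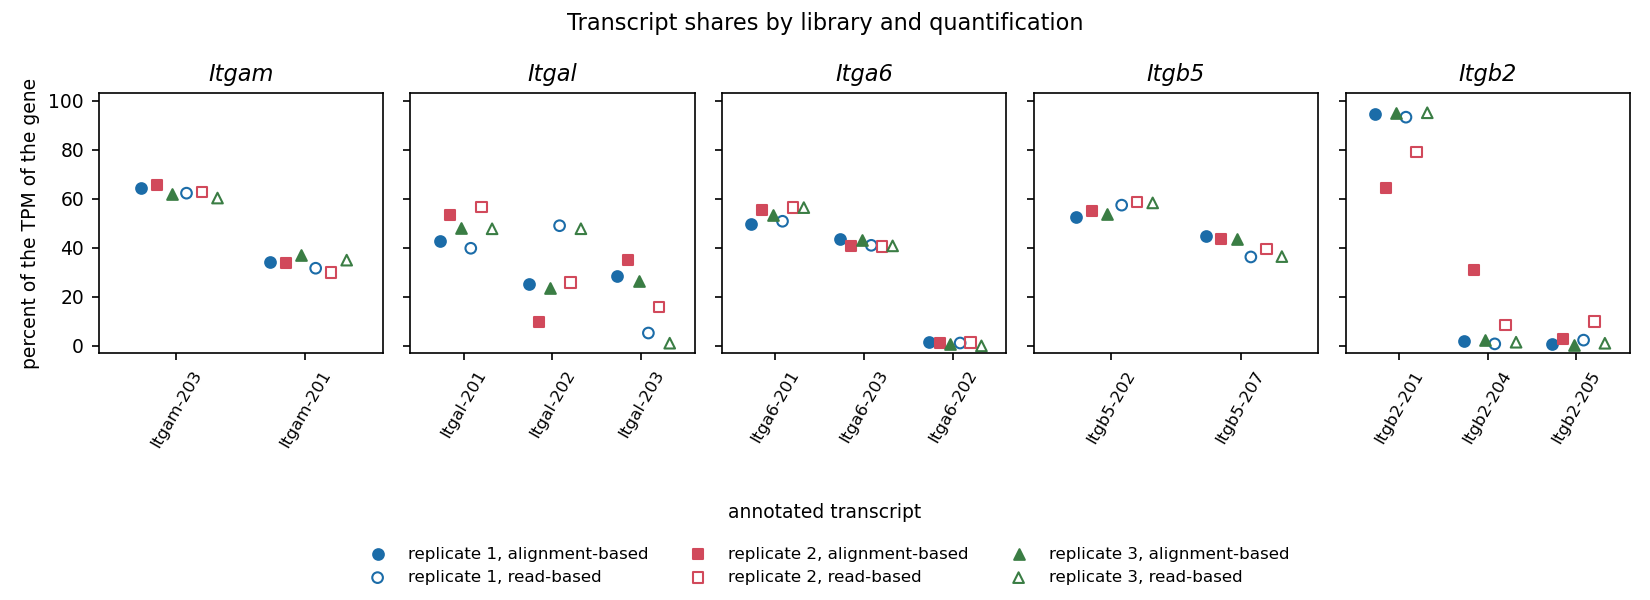
Share of the TPM of the gene taken by each named transcript of 5 subunits, in percent, with filled points from the alignment and open points from the reads. Itgam, Itga6 and Itgb5 have shares that lie close together over libraries and methods, Itgal does not, and Itgb2-204 stands high in replicate 2.

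By the alignment, Itgb2 was the chain whose leading transcript varied most in share between libraries. Itgb2-201, the coding transcript, took 94.8% and 95.0% of the gene in replicates 1 and 3 and 64.4% in replicate 2. Itgb2-204, annotated as a target of nonsense-mediated decay (the pathway that destroys messages with an early stop codon), took 2.03%, 31.1% and 2.47% in replicates 1, 2 and 3, resting on 468, 3640 and 409 expected counts. It joins the shared exon to the one after the skipped exon of 245 bases, a length that leaves 2 bases over when divided by 3. Itgb2-205, which also lacks that exon, took 0.690%, 2.82% and 0.550%. From the reads, both together took 3.15%, 18.4% and 2.56%, against 2.72%, 33.9% and 3.02% from the alignment, so replicate 2 was high by both methods and the size differed.

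The share of TPM on protein-coding transcripts of Itgb2 was accordingly 97.3%, 66.1% and 97.0%. A drop in replicate 2 of over 20 percentage points below both other libraries was seen in 1 of the 9 subunits at 5 TPM or more, where 2.33% of 5588 genes with noncoding transcripts and at least 5 TPM had one. From the reads the coding share of Itgb2 was 96.8%, 81.6% and 97.4%, and by that limit none of the 9 had such a drop. The high TPM of Itgb2 in replicate 2 thus included a larger part from transcripts annotated for nonsense-mediated decay than in the other libraries, by both methods. They count as noncoding here only because they are not annotated as protein coding.

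Itga4 and Itga5 had a lower share of coding transcript in replicate 1, though not the lowest level of it. In replicates 1, 2 and 3 their coding transcripts had 432, 494 and 389 protein-coding CPM for Itga4 and 174, 169 and 162 for Itga5. The coding share of Itga4 was 83.0%, 95.3% and 96.4% in replicates 1, 2 and 3 (75.2%, 92.1% and 94.0% from the reads), and its 4 noncoding transcripts held 855, 99 and 128 expected counts. The coding share of Itga5 was 92.1%, 100% and 97.2% (76.1%, 95.6% and 96.5% from the reads). Over the same 9 subunits the share was lowest in replicate 1 for 7, and for 6 from the reads, where 59.4% of the 5588 genes were lowest there. The medians over the 9 subunits were 97.3%, 99.2% and 98.5%, beside 93.3%, 97.2% and 97.2% over those genes. Replicate 1 also had the most of the nuclear noncoding RNAs, with 8329, 3480 and 1444 protein-coding CPM of Malat1 and 924, 212 and 152 of Neat1, and the part of nuclear RNA in these shares was not tested.

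**Figure D5:**
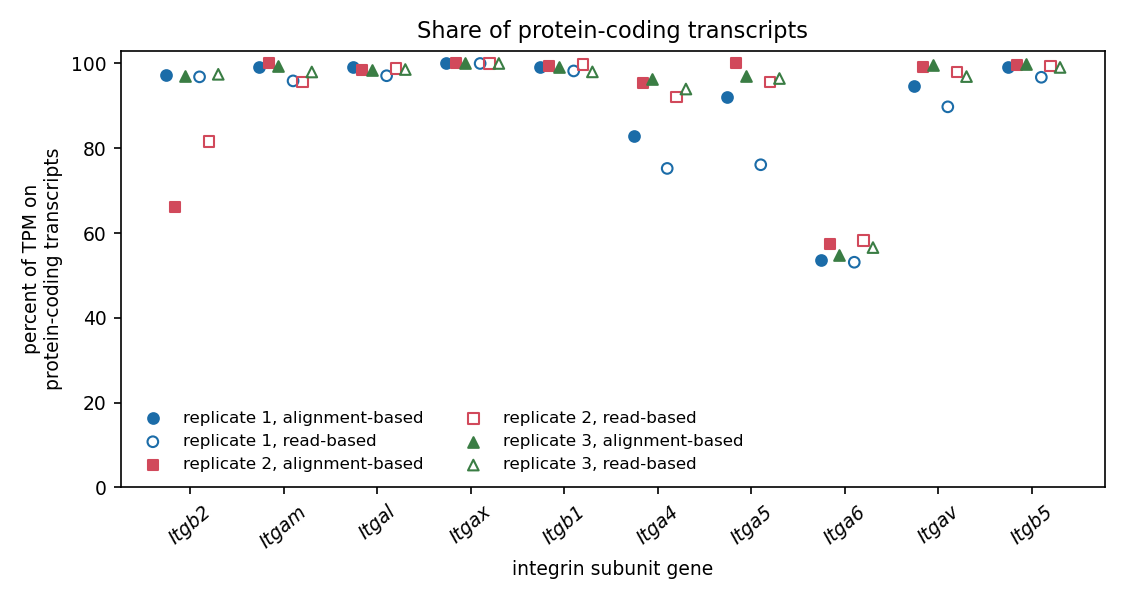
Percent of the TPM of each subunit gene on protein-coding transcripts, per library, with filled points from the alignment and open points from the reads. Itgb2 is low in replicate 2, Itga4 and Itga5 are low in replicate 1, and Itga6 lies between 53.1% and 58.3% throughout.

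Of the 16 other integrin subunits 2 reached 1 TPM in all 3 libraries. Itgb7, the other beta partner of Itga4, had 3.26, 4.61 and 4.64 TPM, and Itga9, a further alpha partner of Itgb1, had 1.06, 3.53 and 1.37 TPM. By the read-based quantification neither reached 1 TPM in every library, so this count fell to 0. Nuclear protein-coding genes took 20.5%, 21.4% and 7.95% of read-based TPM in replicates 1, 2 and 3. By the alignment they took 29.6%, 40.4% and 34.8%, so 1 TPM is not the same limit on both scales. Itgb3, the beta chain that pairs with Itgav in osteoclasts and with Itga2b in platelets, had 0.43, 0.3 and 0.41 TPM, and Itga2b had 0.24, 0.16 and 0.17 TPM. Itga3 and Itga7, alpha chains of laminin receptors, had no counts in any library. Itgb2l, a gene similar to Itgb2 that was looked up after the values had been seen, had 1, 4 and 0 expected counts.

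The genes that act on integrins were mostly present, at levels like those of the subunits themselves. Of 10 activation genes 6 reached 1 TPM in all 3 libraries, and the list had a median of 22.9 TPM. It was led by the small GTPase Rap1b at 214 ± 48.6 TPM (SD, n = 3) and the kindlin of blood cells, Fermt3, at 90.8 ± 10.9 TPM, and the skin kindlin Fermt1 had no counts. Of 7 inactivation genes 6 passed, with a median of 27.5 TPM, led by Flna, an actin-binding protein that competes with talin for beta tails, at 69.9 ± 19.6 TPM and Dok1 at 34.0 ± 8.41 TPM. Of 14 adhesion adaptors 12 passed, with a median of 28.7 TPM, led by Lpxn, a leukocyte relative of paxillin, at 46.4 ± 11.2 TPM and the actin crosslinker Actn4 at 45.0 ± 8.96 TPM. Of 16 signalling genes 14 passed, with a median of 46.5 TPM, led by the adaptor Fyb at 340 ± 41.0 TPM and the Src family kinase Lyn at 105 ± 32.1 TPM. These counts stand beside the 42.1% of all protein-coding genes at this limit, and the lists were made of genes known for a role in integrin function.

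All 8 of the tetraspanins and Cd47, membrane proteins that sit beside integrins, passed, with a median of 37.5 TPM, led by Cd63 at 302 ± 54.9 TPM and Cd53 at 239 ± 54.8 TPM. Of 9 genes of integrin trafficking 8 passed, with a median of 25.3 TPM, led by the recycling GTPases Rab11a at 72.5 ± 15.4 TPM and Arf6 at 63.4 ± 13.5 TPM. The ligands were split. Of 22 ligand genes 9 passed, close to the share of all protein-coding genes, and the median was 0.040 TPM. Spp1, which encodes the Itgav ligand osteopontin, had 526 ± 81.1 TPM, and Tgfb1, whose latent form Itgav integrins bind, had 136 ± 26.6 TPM, whereas Vtn, Fga, Fgb, Fgg and Lamb1 had no counts.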

How the data were processed

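Cytosolic total RNA of 1 group of 3 macrophage libraries was quantified by the authors. Per the file headers, the deposited gene and transcript tables hold expected counts, TPM and, for transcripts, the percent of the gene. A second deposited transcript table holds estimated counts and its own TPM. According to the description files, the build was mm10 with GENCODE M21, and the first tables were made from a transcriptome alignment while the second was made from the reads. The sources used here give neither the programs nor the strand setting. Reads shared by transcripts of a gene, or by overlapping genes, are divided by a model, so transcript shares are estimates.

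Features outside the annotation held 0.194%, 0.247% and 0.0227% of counts in replicates 1, 2 and 3 and were left out. A count of 0 allows up to 3 counts. TPM was used to compare genes, and protein-coding CPM to compare libraries. Counts were rounded for dispersion in edgeR 4.0.16 (TMM, intercept only) with DESeq2 1.42.0 as an alternative, in R 4.3.3. Only the edgeR estimate was tried on simulated data. For genes of high simulated dispersion, recovery of the value was checked only without sharing of information between genes, unlike in the reported estimate. Tables and figures were made in Python 3.11.15 with matplotlib 3.10.9, pandas 2.3.3 and numpy 2.4.6. Neighbouring levels were compared by an exact sign-flip test with Benjamini-Hochberg adjustment over 9 pairs. Alternatives covered scaling, filters, limits, the quantification and leaving out each library. The 10 genes and the lists were chosen with earlier results of these data known. Named were all 10 genes, other subunits with at least 1 TPM in every library, the 2 highest genes of each list and transcripts with at least 10% of their gene on average. Further genes and transcripts, among them Itgb2-205, Itgad, Itgb3, Itga2b and genes without counts, were named after their values were seen.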

Additional observations from a re-analysis of the deposited data

How the results depend on the processing

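Of the main counts and ratios under each alternative, 61 values were counted as unchanged and 6 as moved. Some of the 61 could not change, since rescaling TPM by a common factor per library leaves ratios and directions within a library as they are. An unchanged value could still differ in size: the log2 ratio of Itgb2 to Itgb1 fell from 0.34 to 0.12 ± 0.16 with protein-coding transcripts alone. From the reads it was then 0.18 ± 0.11. With protein-coding transcripts alone, the pairs of constant direction fell from 6 to 4 and the Itgb2 group highest in replicate 2 from 4 to 3. Both also counted as unchanged. So did the median biological coefficient of variation by DESeq2, although its order against that of all genes turned round. The count of other integrin subunits fell to 0 with the read-based quantification and to 0 at a limit of 5 TPM, and the count of the 10 subunits over 2-fold between libraries came to 2 in TPM as deposited; the causes were not tested. With protein-coding transcripts alone, the log2 ratio of the alpha sum to Itgb2 was -0.50, and that to Itgb1 was -0.40 from the alignment and -0.48 from the reads, since noncoding transcripts of Itgb2, Itga6 and Itga4 are left out there. The share of all genes over 2-fold was 15.6% without a filter and 7.92% in TPM. Among neighbouring levels, 6 values changed sign: Itga4 over Itgal ranged between -0.0059 (without replicate 1) and 0.27 with 1 library left out, Itgal over Itgb5 between -0.11 (without replicate 2) and 0.18 and was -0.042 by the read-based quantification and -0.046 with its protein-coding transcripts alone, Itga6 over Itgav was -0.19 with protein-coding transcripts alone, and Itgb5 over Itga5 was -0.0031 by the read-based one. The share of the exon-skipping Itgb2 transcripts in replicate 2 was 11.8-fold over the mean of the others from the alignment and 6.45-fold from the reads. No paired analysis was possible because there is only 1 group. Depth was lowest in replicate 2, where Itgax rests on 51 counts, and 3 libraries allow no exact p below 0.25.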
